A study of Mus musculus with 12 samples.

Results

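The response of mouse embryonic stem (ES) cells to loss of the histone demethylase Jmjd1a was compared, gene by gene, with their response to loss of a second histone demethylase, Jmjd2c. All 12 arrays of the series enter the comparison. The series holds 3 arrays of E14 ES cells with a short hairpin RNA (shRNA) against Jmjd1a (current symbol Kdm3a), 3 with an shRNA against Jmjd2c (Kdm4c) and 6 with an shRNA against firefly luciferase (Luc), a transcript that mouse cells do not have. E14 is an established ES cell line, and per the labels it was grown without feeder cells on gelatin in serum medium with LIF, the cytokine that holds ES cells in the self-renewing state. Every culture received 2 µg of shRNA in the pSUPER puro vector, and puromycin at 1.0 µg/ml was kept on the Luc cultures for 4 days. For the knockdown cultures the sources used here do not give the puromycin dose and time. The labels do not say how many hairpin sequences were used per target, so an effect of the hairpin sequence and an effect of losing its target cannot be told apart.

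The Jmjd1a change is the mean log2 intensity of the 3 Jmjd1a arrays minus that of Luc replicates 1 to 3, and the Jmjd2c change is that of the 3 Jmjd2c arrays minus Luc replicates 4 to 6. The interaction is the Jmjd1a change minus the Jmjd2c change: it is positive where a probe moved further up, or less far down, with Jmjd1a knockdown. No array enters both changes. The study's own design text sets each knockdown against all 6 Luc arrays, and the effect of that choice is given after each group of results and in the closing section. With all 6 as 1 group the shared Luc mean cancels. The interaction is then the mean of the Jmjd1a arrays minus that of the Jmjd2c arrays. Values are background-subtracted array intensities; those under 32 were set to 32, which is 5 on the log2 scale and is called the floor. Where arrays of the lower group lie under it, the change is a lower bound and is given as "at least". Of 46133 probes, 15853 lay above the floor on at least 3 of the 12 arrays and were tested with limma. A probe was called at an adjusted p under 0.05 over all tested probes (Benjamini-Hochberg, two-sided). Log2 changes are given ± SE.

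Methylation of lysine 9 on histone H3 is a mark of silenced chromatin. Kdm3a removes it from the mono- and dimethylated forms and Kdm4c from the di- and trimethylated forms, so both enzymes are known as relievers of silencing at their target genes. ES cells are held undifferentiated by factors such as Pou5f1, Sox2, Nanog, Klf4 and Esrrb. They can leave that state towards primitive endoderm, the lineage of the yolk sac that Gata6 and Sox17 drive, towards trophectoderm, or towards primed epiblast, which expresses Fgf5.

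The arrays of a group resembled each other closely, with pairwise correlations of log2 intensity between 0.995 and 0.997 over the tested probes. The 2 sets of Luc arrays did not resemble each other as closely: across the sets the correlation was 0.962 to 0.964, lower than between either knockdown and its own Luc set (0.980 to 0.988). Luc replicates 4 to 6 differed from Luc replicates 1 to 3 on 9199 probes (58.0%), and the sources used here do not say why. Of the 10 ES cell markers checked, 9 were above the floor on all 12 arrays and Dppa5a was never above it. None of the 4 blood or macrophage markers measured (Ptprc, Lyz2, Tyrobp and Hba-a1) rose above it, nor did the fibroblast collagens Col1a1, Col1a2 and Col3a1. Other mesenchymal or feeder markers did: Pdgfrb was above the floor on all 12 arrays, Thy1 on 11 and Dcn on 1. The labels call the arrays of a group biological replicates without saying how they were grown, and with 3 arrays a group the number of arrays limits the precision.

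Each hairpin lowered its own target and not the other's. Kdm3a, measured by probe 103780008, had intensities of 2208, 1959 and 2267 on Luc replicates 1 to 3, 785, 793 and 851 on the Jmjd1a arrays, 1587, 1597 and 1649 on Luc replicates 4 to 6 and 1757, 1744 and 1704 on the Jmjd2c arrays. The 3 Jmjd1a arrays lay below every other array. The Jmjd1a change was a fall by 1.40 ± 0.06 (SE) on the log2 scale (limma adjusted p = 6.08e-08), against a Jmjd2c change of 0.11 ± 0.06 (adjusted p = 0.212). A second Kdm3a probe fell by 1.65 ± 0.06 with Jmjd1a knockdown and rose by 0.17 ± 0.06 with Jmjd2c knockdown (limma adjusted p = 0.0487). Kdm4c had intensities of 307, 329 and 312 on Luc replicates 1 to 3, 334, 294 and 333 on the Jmjd1a arrays, 270.0, 278 and 266 on Luc replicates 4 to 6 and 106, 101 and 105 on the Jmjd2c arrays. It fell by 1.38 ± 0.06 with Jmjd2c knockdown (limma adjusted p = 3.16e-08), and its Jmjd1a change was 0.02 ± 0.06 (adjusted p = 0.91). Among the 19 tested genes of a list of histone demethylases, 7 had a called interaction, and 2 of these are the targets themselves. Over all tested genes the share was 25.9%.

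The 2 knockdowns shared part of their response and differed in another. The interaction was called on 3844 probes (24.2%), of which 1966 were higher for Jmjd1a and 1878 lower. It was at least 2-fold on 371. Jmjd1a knockdown changed 4040 probes, 2126 upward (13.4%) and 1914 downward (12.1%), and Jmjd2c knockdown changed 6176, 3288 upward (20.7%) and 2888 downward (18.2%). Of the 2182 probes called in both, 80.0% moved in the same direction. That gives 1745 probes that moved alike, 910 up (5.74%) and 835 down (5.27%), and 437 that moved in opposite directions (2.76%). On 1381 of the 1745 the interaction was not called, which does not show that the changes were equal in size.

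A further 924 probes (5.83%) were called with Jmjd1a knockdown, were not called with Jmjd2c knockdown and had a called interaction. The corresponding number for Jmjd2c was 1969 (12.4%). These are referred to as Jmjd1a-only and Jmjd2c-only probes. Another 934 probes were called for Jmjd1a and 2025 for Jmjd2c without a called interaction, so they cannot be assigned to one knockdown. Across all tested probes the 2 changes had a Pearson correlation of 0.33, as a description over probes that are not independent of each other. The plot of both changes shows each class as a sector of that cloud.

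**Figure D1:**
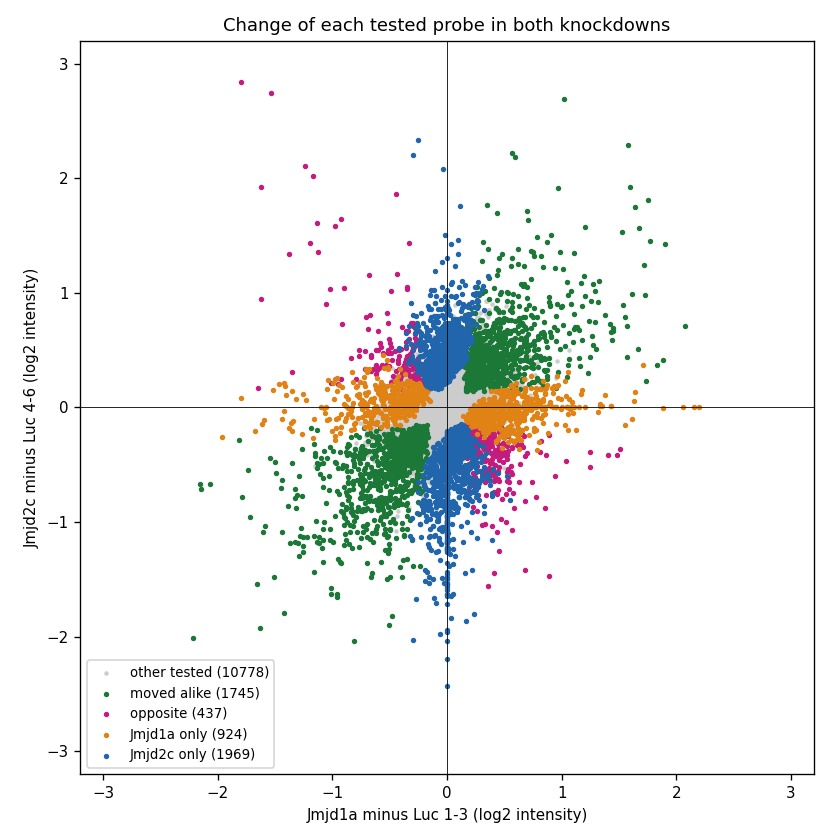
Jmjd1a change (x axis) against Jmjd2c change (y axis), both on the log2 scale, for the 15853 tested probes. Probes called in the same direction (1745) lie in the upper right and lower left, and probes called in opposite directions (437) in the other corners; the largest of these fell with Jmjd1a knockdown and rose with Jmjd2c knockdown.

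The most divergent genes included many of primitive endoderm, which fell with Jmjd1a knockdown and rose with Jmjd2c knockdown. Of 23 tested genes on a list of primitive and visceral endoderm genes, 18 had a called interaction, 17 of them lower for Jmjd1a. Over all tested genes 25.9% had a call in either direction and 12.9% were lower for Jmjd1a. By class, 201 probes (1.27%) fell with Jmjd1a and rose with Jmjd2c. On the list 11 of the 23 did so, against 1.47% of all tested genes. Other members went otherwise: 3 fell in both (Pga5, Nid1 and Nid2) and Apoe fell with Jmjd2c only. The endoderm factor Gata4 was among 3 genes with no call, with changes of -0.09 and 0.04. The list's median changes were -0.49 with Jmjd1a and 0.92 with Jmjd2c, and its median interaction was -1.21, beside -0.02 over all tested genes. Lama1, 1 of the 17, lay at the floor outside the Jmjd2c arrays, so it passed the filter through that group alone and had to differ. Sox17 also needed its Jmjd2c arrays to pass the filter. The list was written with earlier results of these data known. Fewer cells of a type and less RNA per cell cannot be told apart in these bulk samples.

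Gata6, the transcription factor that drives primitive endoderm, had intensities of 319, 288 and 280.0 on Luc replicates 1 to 3, 130.0, 113 and 133 on the Jmjd1a arrays, 194, 215 and 207 on Luc replicates 4 to 6 and 824, 934 and 897 on the Jmjd2c arrays. The 4 groups did not overlap: Jmjd1a was lowest and Jmjd2c highest, with the Luc sets in between. The Jmjd1a change was a fall by 1.24 ± 0.08 (limma adjusted p = 9.95e-07), or 2.36-fold. The Jmjd2c change was a rise of 2.11 ± 0.08 (adjusted p = 1.27e-08), or 4.31-fold. The interaction was -3.35 ± 0.12 (adjusted p = 1.21e-08). Sox17, which acts in the same lineage, was near the floor outside the Jmjd2c arrays, with 30.6, 44.6 and 42.3 on Luc replicates 1 to 3 and 3.0, 6.4 and 1.40 with Jmjd1a knockdown. It read 23.0, 0.40 and -1.90 on Luc replicates 4 to 6 and 139, 143 and 162 with Jmjd2c knockdown. Its rise against an all-floor control set was at least 4.61-fold. Its Jmjd1a fall of at least 0.29 on the log2 scale was not called (limma adjusted p = 0.0642). All 3 Jmjd1a arrays lay under the floor, so the size of that fall was not measured.

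Foxq1, a forkhead transcription factor, had intensities of 216, 215 and 228 on Luc replicates 1 to 3, 72.7, 75.4 and 79.5 on the Jmjd1a arrays, 88.7, 73.8 and 79.7 on Luc replicates 4 to 6 and 534, 580.1 and 508 on the Jmjd2c arrays. It fell by 1.53 ± 0.08 and rose by 2.74 ± 0.08, which gave an interaction of -4.28 ± 0.11 (limma adjusted p = 1.33e-09). The Jmjd1a arrays and Luc replicates 4 to 6 overlapped, so the lower level in one comparison was the starting level in the other.

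Cubn encodes cubilin, an endocytic receptor of the visceral endoderm, and Dab2 encodes an adaptor that carries such receptors into the cell. Cubn intensities were 226, 252 and 188 on Luc replicates 1 to 3, 73.6, 56.7 and 61.5 on the Jmjd1a arrays, 50.1, 53.3 and 45.3 on Luc replicates 4 to 6 and 343, 339 and 380.0 on the Jmjd2c arrays. It had the largest interaction of the genes named here, -4.63 ± 0.17 (limma adjusted p = 1.51e-08), made up of a fall by 1.79 ± 0.12 and a rise of 2.84 ± 0.12. Dab2 intensities were 956, 920.1 and 981 on Luc replicates 1 to 3, 452, 376 and 443 on the Jmjd1a arrays, 239, 240.5 and 244 on Luc replicates 4 to 6 and 979, 879.8 and 1091 on the Jmjd2c arrays. It fell by 1.17 ± 0.09 and rose by 2.02 ± 0.09, to a level on the Jmjd2c arrays that overlapped that of Luc replicates 1 to 3. Serglycin (Srgn), the core of a secretory-granule proteoglycan, fell by 1.62 ± 0.06 and rose by 1.93 ± 0.06, and a second Srgn probe moved the same way in both.

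Cubn and Dab2 moved together, so the 250 bases before their annotated starts are shown, from the RefSeq promoter table of build GRCm38.p6. Capitals mark GATAA, the core of the sequence that GATA factors bind, and CTTTGA, that of the TCF/LEF factors, on either strand (TTATC and TCAAAG). The last 2 letters of CTTTGA can be the first 2 of GATAA, in which case a stretch counts for both. The Dab2 window is chr15:6299539-6299788 (plus strand, the first of 2 starts listed), and the Cubn window is chr2:13491877-13492126 (minus strand).
Dab2: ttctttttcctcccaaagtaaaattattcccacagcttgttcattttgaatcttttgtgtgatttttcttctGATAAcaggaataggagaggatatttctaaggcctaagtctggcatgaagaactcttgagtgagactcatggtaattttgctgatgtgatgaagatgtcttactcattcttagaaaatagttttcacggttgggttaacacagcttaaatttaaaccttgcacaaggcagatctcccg
Cubn: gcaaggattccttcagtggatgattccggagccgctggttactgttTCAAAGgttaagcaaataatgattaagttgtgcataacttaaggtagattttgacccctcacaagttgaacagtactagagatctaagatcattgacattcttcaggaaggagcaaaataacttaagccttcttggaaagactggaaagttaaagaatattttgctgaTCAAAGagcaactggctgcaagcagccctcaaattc
The Dab2 stretch holds 1 GATAA and no CTTTGA, and the Cubn stretch holds 2 CTTTGA and no GATAA. Of the genes that fell with Jmjd1a and rose with Jmjd2c, 102 were matched in the table. In the full window of 300 bases, 20.6% of them had GATAA, beside 19.6% of the 7575 tested genes matched and 25.4% of all 32851 windows in the table. These are matches of letters, not evidence of binding.

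Type IV collagen, the main collagen of basement membranes, followed the same pattern. Col4a1 intensities were 375, 346 and 390.1 on Luc replicates 1 to 3, 164, 165 and 180.3 on the Jmjd1a arrays, 302, 303 and 283 on Luc replicates 4 to 6 and 719.5, 804 and 756 on the Jmjd2c arrays. Every Jmjd1a array was below, and every Jmjd2c array above, all 6 Luc arrays. It fell by 1.12 ± 0.07 and rose by 1.36 ± 0.07 (interaction -2.48 ± 0.10, limma adjusted p = 2.27e-08). Col4a2, which is transcribed from the opposite strand next to Col4a1 on chromosome 8, fell by 1.14 ± 0.06 and rose by 1.61 ± 0.06. The promoter windows of the pair overlap by 78 bases. Serpinh1, the collagen chaperone, fell by 0.49 ± 0.08 and rose by 1.01 ± 0.08. On a list of basement membrane and matrix genes 5 of 23 tested were in this class, against 1.47% of all tested genes.

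The remaining genes among the 10 largest of the class were Ccnd2, Fgf10 and Klb. The growth factor gene Fgf10 fell at least 2.02-fold and rose by 1.03 ± 0.13. Klb, a co-receptor for endocrine FGFs, fell at least 1.97-fold and rose by at least 1.58 on the log2 scale. Ccnd2, a G1 cyclin, fell by 1.19 ± 0.07 and rose by 1.44 ± 0.07 on 1 probe. Its second probe fell by 1.52 with Jmjd1a and had a Jmjd2c change of 0.15, so the probes disagreed on the Jmjd2c side. The signalling gene Bmp4 fell by 1.01 ± 0.08 and rose by 0.21 ± 0.08 (limma adjusted p = 0.0461 for the rise). Pax6, an eye and neural transcription factor, fell by 1.06 ± 0.09 and rose by 0.90 ± 0.09.

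The summed intensity of 6 primitive endoderm markers put the groups in the same order as Gata6. It was 794 to 913 on the Jmjd1a arrays, 994 to 998 on Luc replicates 4 to 6, 1791 to 1859 on Luc replicates 1 to 3 and 2894 to 3200 on the Jmjd2c arrays. The Luc sets thus differed from each other in these genes, and the part of that difference in the result was not tested. Of the 18 called interactions on the endoderm list, 15 had a called difference of the same sign between the Jmjd1a and Jmjd2c arrays themselves, a contrast called on 55.0% of all tested probes. Against all 6 Luc arrays as 1 group, 5 of the 10 largest genes (Srgn, Gata6, Col4a2, Col4a1 and Fgf10) stayed in the opposite class. In that fit Gata6 fell by 0.98 and rose by 1.84, whereas the changes of Ccnd2 were 0.30 and -0.052 and were not called (limma adjusted p = 0.794 and 0.978).

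**Figure D2:**
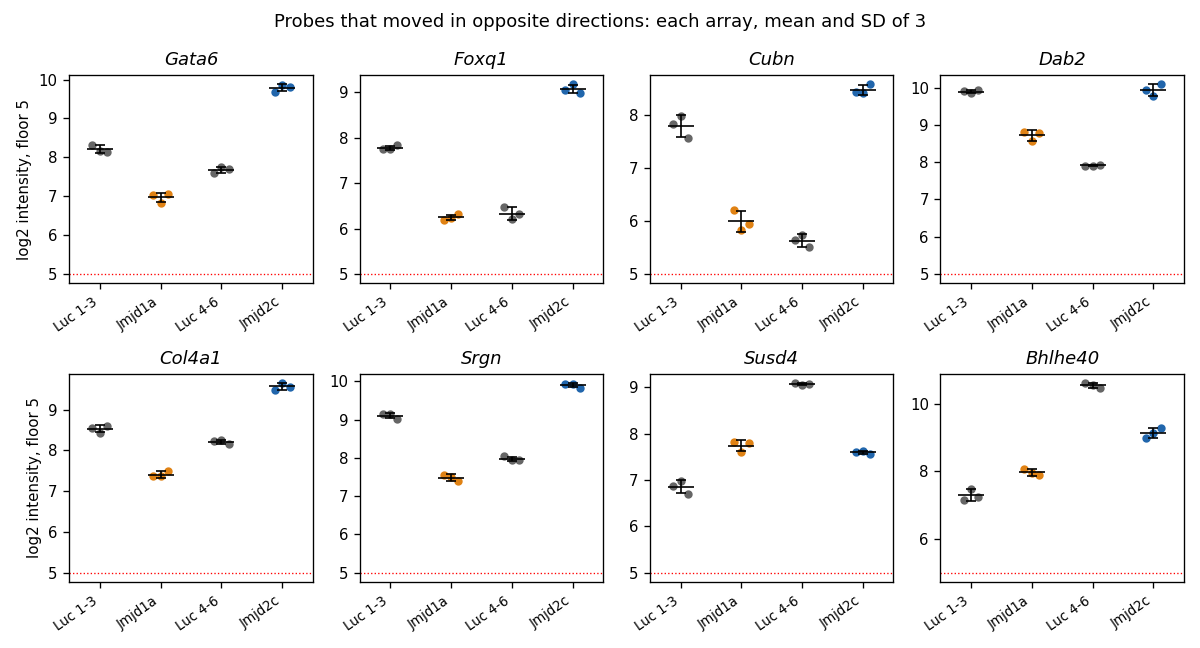
Log2 intensity (y axis, floor at 5 as a dotted line) on each array for 8 genes that moved in opposite directions, by group, with the mean and SD of 3 arrays. The panels from Gata6 to Srgn show genes that fell with Jmjd1a and rose with Jmjd2c; for Susd4 and Bhlhe40 the Luc sets lie further apart than the knockdowns do.

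Genes of cell junctions were among those that moved the other way, up with Jmjd1a and down with Jmjd2c. On a list of cadherins and junction genes 3 of 17 tested did so, against 1.62% of all tested genes, and 4 more rose with Jmjd1a only, against 3.27%. The desmosomal plaque gene Pkp2 had intensities of 155, 159 and 130.3 on Luc replicates 1 to 3, 250.0, 261 and 232 on the Jmjd1a arrays, 259, 228 and 265 on Luc replicates 4 to 6 and 155, 199 and 130.1 on the Jmjd2c arrays. It rose by 0.74 ± 0.14 and fell by 0.65 ± 0.14 (interaction 1.40 ± 0.19, limma adjusted p = 3.78e-04), and its second probe was in the same class. Dsg2, a desmosomal cadherin, rose by 0.45 ± 0.07 and fell by 0.46 ± 0.07.

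For some genes of this class the Luc sets lay further apart than the knockdown arrays did. On 70 of its 236 probes the Jmjd1a and Jmjd2c arrays were not called different, beside 7136 of all 15853 tested probes. On 61 they differed in the sign opposite to the interaction, beside 3531 of all tested probes. Susd4, which encodes a complement-domain membrane protein, had intensities of 118, 127 and 104 on Luc replicates 1 to 3, 226, 196 and 222 on the Jmjd1a arrays, 547, 529.6 and 535 on Luc replicates 4 to 6 and 196, 197 and 189.8 on the Jmjd2c arrays. The Jmjd1a and Jmjd2c arrays overlapped, while the Luc sets were 2.21 apart on the log2 scale. Bhlhe40, a circadian and stress-responsive repressor, had intensities of 142, 180.2 and 151 on Luc replicates 1 to 3, 269.5, 249 and 236 on the Jmjd1a arrays, 1568, 1511 and 1430.5 on Luc replicates 4 to 6 and 509, 561 and 620.3 on the Jmjd2c arrays. It rose by 0.68 ± 0.10 and fell by 1.42 ± 0.10, yet remained higher on every Jmjd2c array than on any Jmjd1a array. Pttg1, the securin that holds sister chromatids together, was 1421 ± 22.7 with Jmjd1a knockdown and 1444 ± 19.5 with Jmjd2c knockdown (SD, n = 3). It started from 1152 ± 43.9 and 2943 ± 103 on the respective Luc sets.

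The other genes among the 10 largest of the class were Mapk13, Irs1, Tpd52l1, Arhgef4, Whrn, Golim4 and Grhl3. Their interactions ran from 1.16 (Grhl3) to 1.74 (Mapk13). Irs1, Golim4 and Grhl3 lay close to the floor, and their interactions were not called at a floor of 64. Of the 236 probes of this class (1.49%) the Luc sets differed on 210, and the knockdown arrays differed in the sign of the interaction on 105. Of the 201 probes that fell with Jmjd1a and rose with Jmjd2c, the Luc sets differed on 147 and the knockdown arrays differed in the sign of the interaction on 136. Over all 15853 tested probes the numbers were 9199 (58.0%) and 5186. Against all 6 Luc arrays as 1 group, 0 of the 10 largest genes up with Jmjd1a and down with Jmjd2c stayed in the class by limma, and 1 did at an unadjusted p under 0.05. The Jmjd1a change was then -0.95 for Bhlhe40, -0.081 for Arhgef4, -0.22 for Susd4 and -0.0030 for Mapk13, none of them called (limma adjusted p = 0.425 to 0.998). Elovl6, a fatty acid elongase, is a case with no called Luc difference (Luc difference 0.07 ± 0.06, limma adjusted p = 0.398). It rose by 0.26 ± 0.06 and fell by 0.43 ± 0.06.

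Genes of the early response to serum and of the p53 response were among those that rose in both knockdowns. The 10 largest, ranked by the smaller of their changes, were Slc5a5, Car2, Sp5, Slc40a1, Anxa3, Fndc3c1, Hs6st2, S100a6, Tasor2 and Ccn2. Slc40a1, the iron exporter ferroportin, had intensities of 142, 152.5 and 151 on Luc replicates 1 to 3, 399.7, 436 and 449.7 on the Jmjd1a arrays, 90.4, 72.2 and 94.4 on Luc replicates 4 to 6 and 227, 261 and 248 on the Jmjd2c arrays. Each knockdown was above its own Luc set on all 3 arrays, by 1.53 ± 0.10 with Jmjd1a and 1.53 ± 0.10 with Jmjd2c. The interaction was 0.00 ± 0.14, with a 95% interval of -0.30 to 0.30. Against all 6 Luc arrays as 1 group the changes were 1.93 and 1.13 and the interaction of 0.80 was called (limma adjusted p = 0.0428). Car2, a carbonic anhydrase, read 319, 329 and 357 and then 1001, 1060.3 and 1058 with Jmjd1a knockdown, and 41.5, 53.7 and 65.6 and then 179, 177 and 175 with Jmjd2c knockdown. Its changes were 1.64 ± 0.13 and 1.75 ± 0.13, although the Jmjd2c arrays stayed below every Luc array of the other set. A second, dimmer Car2 probe rose with Jmjd1a only.

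Sp5, a zinc-finger target of Wnt signalling, had intensities of 238, 281 and 273 on Luc replicates 1 to 3, 802, 715 and 844 on the Jmjd1a arrays, 50.6, 38.1 and 51.7 on Luc replicates 4 to 6 and 219, 222 and 238 on the Jmjd2c arrays. It rose by 1.58 ± 0.11 and by 2.29 ± 0.11, and the interaction of -0.71 ± 0.16 was called (limma adjusted p = 0.00817) but not at a floor of 64, on the log2(value + 50) scale or with no filter on low values. The thyroid iodide transporter gene Slc5a5 rose by 1.75 ± 0.08 with Jmjd1a and at least 3.51-fold with Jmjd2c on 1 probe, and its second probe was not called in either. Ccn2, a matricellular target of YAP, rose by 1.32 ± 0.09 and 1.10 ± 0.09, and the calcium-binding S100a6 by 1.20 ± 0.06 and 1.57 ± 0.06. The annexin Anxa3 rose by 1.77 ± 0.08 and 1.45 ± 0.08. For these 3 genes the 95% intervals of the interaction were -0.05 to 0.49, -0.56 to -0.18 and 0.07 to 0.56. Hs6st2, which sulfates heparan sulfate, Fndc3c1 and Tasor2 rose by at least 1.10 on the log2 scale in each knockdown on the probe named. A second Hs6st2 probe rose by 1.73 with Jmjd1a and by 0.23 with Jmjd2c.

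The promoters of Sp5, one of the 10 largest rises in both, and of Rec114, a gene for the formation of meiotic DNA breaks and the first in rank of those that fell in both, are shown as above. The Sp5 window is chr2:70474673-70474922 (plus strand) and the Rec114 window is chr9:58741560-58741809 (minus strand).
Sp5: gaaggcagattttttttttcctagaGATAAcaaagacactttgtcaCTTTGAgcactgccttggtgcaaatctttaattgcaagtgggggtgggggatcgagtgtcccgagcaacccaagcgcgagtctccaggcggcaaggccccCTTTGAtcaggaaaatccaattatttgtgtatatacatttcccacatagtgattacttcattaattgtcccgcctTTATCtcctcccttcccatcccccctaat
Rec114: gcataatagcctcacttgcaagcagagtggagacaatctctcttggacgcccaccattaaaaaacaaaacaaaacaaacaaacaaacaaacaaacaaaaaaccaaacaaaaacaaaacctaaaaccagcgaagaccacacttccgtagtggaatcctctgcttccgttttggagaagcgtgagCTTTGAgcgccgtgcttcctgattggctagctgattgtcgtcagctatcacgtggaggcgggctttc
The Sp5 stretch holds 2 CTTTGA and 2 GATAA, and the Rec114 stretch holds 1 CTTTGA. Over the full windows CTTTGA was present in 11.7% of the 487 matched genes that rose in both and 12.9% of the 474 that fell in both. It was present in 14.1% of the tested genes matched and in 18.2% of the 27025 genes in the table.

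By list, 10 of 20 tested immediate early, SRF and YAP target genes rose in both, as did 10 of 26 p53 targets and 8 of 17 imprinted genes, against 6.48% of all tested genes. Rhob, a small GTPase, rose by 1.01 ± 0.09 and 1.21 ± 0.09. The p53 target Perp, a desmosomal protein of epithelia, rose by 0.99 ± 0.12 and 1.36 ± 0.12, and the phosphatase Dusp4 by 0.96 ± 0.09 and 0.90 ± 0.09. Among the imprinted genes Dlk1 rose by 0.68 ± 0.06 and 0.79 ± 0.06. Igf2, a fetal growth factor, had intensities of 439, 441 and 464 on Luc replicates 1 to 3, 646, 670.0 and 717 on the Jmjd1a arrays, 204, 231 and 236 on Luc replicates 4 to 6 and 1006, 1038 and 999 on the Jmjd2c arrays. It rose in both, but further with Jmjd2c (interaction -1.59 ± 0.09, limma adjusted p = 9.77e-07). Against all 6 Luc arrays as 1 group its interaction of -0.58 was not called (limma adjusted p = 0.172).

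The trophectoderm and epithelial list had 4 of 16 tested genes up in both, against 6.48% of all tested genes. The trophectoderm factor Cdx2 rose by 1.21 ± 0.07 with Jmjd1a and at least 1.96-fold with Jmjd2c, from Luc levels of 67.6, 73.6 and 70.4 and 16.7, 34.8 and 9.40. The keratin Krt8 had intensities of 168, 156 and 169 on Luc replicates 1 to 3, 296, 343 and 325 on the Jmjd1a arrays, 228, 240.0 and 161 on Luc replicates 4 to 6 and 744, 785 and 809 on the Jmjd2c arrays. All 3 arrays of each knockdown exceeded all 6 Luc arrays, and the rise was larger with Jmjd2c (1.92 ± 0.12 against 0.97 ± 0.12; interaction -0.95 ± 0.18, limma adjusted p = 0.00256). Its partner Krt18 rose by 0.73 ± 0.10 and 0.80 ± 0.10, with an interaction of -0.07 ± 0.14. The summed level of 5 trophectoderm markers was 160 to 181 on Luc replicates 1 to 3 and 319 to 345 with Jmjd1a. It was 105 to 148 on Luc replicates 4 to 6 and 176 to 227 with Jmjd2c. Among the 5, Elf5 and Hand1 never rose above the floor.

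Meiosis and ES cell genes were among those that fell in both knockdowns. The 10 largest were Rec114, Aurkc, Tcl1, Fcgrt, Bcas1, Plcd1, Fxyd6, Got1l1, Cpn1 and Alpk3. Rec114 had intensities of 219, 217 and 229.9 on Luc replicates 1 to 3, 47.8, 43.5 and 52.6 on the Jmjd1a arrays, 655, 637 and 659 on Luc replicates 4 to 6 and 174, 163 and 149 on the Jmjd2c arrays. It fell by 2.21 ± 0.08 and by 2.01 ± 0.08, and the 95% interval of the interaction was -0.45 to 0.03. Aurkc, a kinase of meiotic chromosome segregation, read 100.1, 98.0 and 104 on Luc replicates 1 to 3 and 17.4, 16.3 and 33.5 with Jmjd1a. It read 409, 445 and 385 on Luc replicates 4 to 6 and 100.2, 107 and 119.9 with Jmjd2c, so the Jmjd2c arrays overlapped the other Luc set. It fell by 1.92 ± 0.08 with Jmjd2c and, with 2 of the 3 Jmjd1a arrays under the floor, at least 3.10-fold with Jmjd1a.

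Tcl1, an activator of AKT that marks naive ES cells, had intensities of 86.8, 95.6 and 124 on Luc replicates 1 to 3, 22.0, 14.1 and 20.5 on the Jmjd1a arrays, 255, 271 and 236 on Luc replicates 4 to 6 and 86.7, 82.6 and 93.1 on the Jmjd2c arrays. All 3 Jmjd1a arrays lay under the floor, so the Jmjd1a fall was at least 3.15-fold and the size of the interaction was not measured. The Jmjd2c fall was by 1.54 ± 0.11. The ion transport regulator Fxyd6 was bright on all arrays, at 3630.3 ± 108 and 1478 ± 19.1 in the Jmjd1a comparison and 6972 ± 271 and 3078 ± 159 in the Jmjd2c comparison (SD, n = 3). It fell by 1.30 ± 0.06 and 1.18 ± 0.06. Fcgrt, the neonatal Fc receptor, fell by 1.51 ± 0.12 and 1.48 ± 0.12. In 4 of the 5 genes with values here the Luc 4 to 6 level was more than 2-fold that of Luc 1 to 3.

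On a list of naive pluripotency genes 10 of 36 tested fell in both, against 6.34% of all tested genes. The junction molecule Jam2 fell by 0.74 ± 0.05 and 0.69 ± 0.05, and Fgf4, the ES cell FGF, fell at least 1.62-fold and 1.64-fold. Nanog fell by 0.29 ± 0.06 and 0.40 ± 0.06. Pou5f1 was called in neither, with changes of -0.04 ± 0.07 and 0.03 ± 0.07. The changes of Sox2 were -0.16 ± 0.06 (limma adjusted p = 0.0725) and -0.18 ± 0.06 (adjusted p = 0.0312), with an interaction of 0.02 ± 0.09.

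Against all 6 Luc arrays as 1 group, 5 of the 10 largest genes up in both (Slc5a5, Slc40a1, Anxa3, S100a6 and Ccn2) and 1 of the 10 largest down in both (Bcas1) stayed in their class. Rec114 then fell by 2.99 with Jmjd1a, and its Jmjd2c change of -1.23 was not called (limma adjusted p = 0.0729). In the same fit 20 named genes that moved alike had a called interaction where none was called against the separate Luc sets (limma adjusted p = 0.0127 to 0.0477). Among them were Ccn2 (0.96), Cdx2 (1.34), Krt18 (-0.99), Tcl1 (-1.45) and Rec114 (-1.76).

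**Figure D3:**
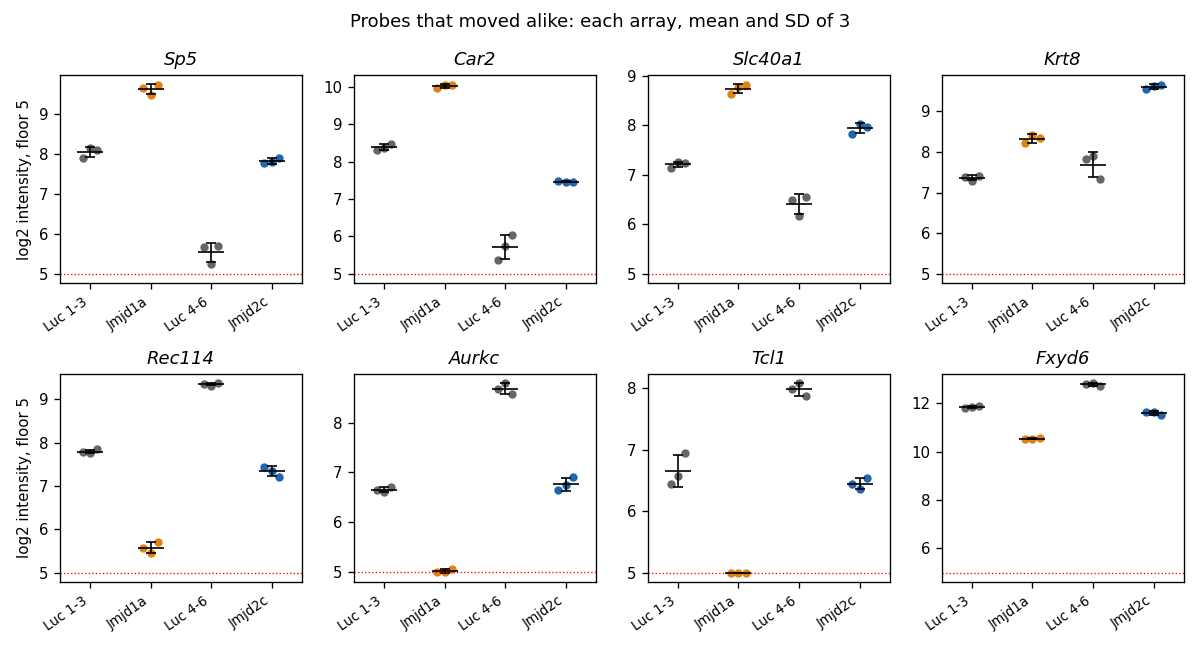
Log2 intensity (y axis, floor at 5 as a dotted line) on each array for 4 genes that rose (top row) and 4 that fell (bottom row) in both knockdowns, with the mean and SD of 3 arrays. Each knockdown lies to the same side of its own Luc set, while the 2 Luc sets lie at different levels for most of these genes.

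Genes raised with Jmjd1a knockdown alone included the primed epiblast marker Fgf5 and the junction gene Cldn6. The Jmjd1a-only class held 513 probes up (3.24%) and 411 down (2.59%). Cxcl12, a chemokine, had intensities of 31.3, 19.4 and 28.7 on Luc replicates 1 to 3, 154, 141 and 145 on the Jmjd1a arrays, 14.1, 9.60 and 4.10 on Luc replicates 4 to 6 and 22.2, 19.7 and 15.6 on the Jmjd2c arrays. It was above the floor on the Jmjd1a arrays and on no other array, a rise of at least 4.59-fold. It passed the filter on low values through that group alone, so it had to differ. Fgf5, the marker of primed epiblast, read 142, 148 and 144 with Jmjd1a and 36.7, 28.5 and 35.3 on Luc replicates 1 to 3. It lay at the floor on the 6 arrays of the Jmjd2c comparison, so a fall there could not have been measured. It rose at least 4.17-fold with Jmjd1a, from a Luc set with 1 array under the floor.

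The tight-junction gene Cldn6 did not have this limit, with intensities of 429.5, 425 and 385 on Luc replicates 1 to 3, 1083, 1150.0 and 1101 on the Jmjd1a arrays, 508, 522 and 521 on Luc replicates 4 to 6 and 532, 539 and 489.7 on the Jmjd2c arrays. It rose by 1.43 ± 0.06, its Jmjd2c change was 0.01 ± 0.06 (95% interval -0.13 to 0.14), and the interaction was 1.42 ± 0.09 (limma adjusted p = 1.13e-06). Rab25, an epithelial trafficking GTPase, rose by 1.56 ± 0.10 and Gng12, a G protein subunit, by 1.64 ± 0.11. The Gng12 level with Jmjd1a, 172 ± 10.8 (SD, n = 3), exceeded that of Luc replicates 4 to 6, 130.3 ± 20.4. Among 9 tested mesoderm and streak genes 3 rose with Jmjd1a only, against 3.27% of all tested genes. They include the T-box factor Eomes, which rose by 1.06 ± 0.11, and the homeobox gene Msx1, which rose from the floor by at least 2.53-fold. Msx1 lay at the floor on both Luc sets, and Evx1, also among them, at the floor in the Jmjd2c comparison. A fall could not have been measured there. On the epiblast and neural list 3 of 14 tested rose with Jmjd1a only (Fgf5, Nes and Cxcl12) and 5 rose in both, while 2 fell with Jmjd1a only (Ncam1 and Tubb3) and 2 fell with Jmjd1a and rose with Jmjd2c (Sox21 and Pax6). Nes, like Cxcl12, lay at the floor in every group but Jmjd1a, so it passed the filter through that group alone and had to differ. These counts thus include genes that could only be called up, which limits what they show beside 3.27%. On the trophectoderm and epithelial list 3 of 16 rose with Jmjd1a only.

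Jmjd1a knockdown alone lowered a group of ES cell transcription factors. Of the 36 tested naive pluripotency genes 6 fell with Jmjd1a only, against 2.68% of all tested genes. Esrrb had intensities of 6613, 6605 and 7111 on Luc replicates 1 to 3, 3787, 3943 and 3708 on the Jmjd1a arrays, 8062, 7989 and 8532 on Luc replicates 4 to 6 and 7558, 7552 and 8029 on the Jmjd2c arrays. It fell by 0.83 ± 0.06 (limma adjusted p = 1.29e-06), with a Jmjd2c change of -0.09 ± 0.06 and a called interaction of -0.74 ± 0.08 (adjusted p = 6.82e-05). Klf4 read 1636, 1864 and 1793 on Luc replicates 1 to 3 and 1157, 1037 and 1034 with Jmjd1a. It read 1844, 2099 and 1913 on Luc replicates 4 to 6 and 1951, 1871 and 1822 with Jmjd2c. The Jmjd1a arrays were below all 9 others, a fall by 0.71 ± 0.07, with an interaction of -0.66 ± 0.10 (limma adjusted p = 8.88e-04). Tfcp2l1 fell by 0.81 ± 0.08 and Zfp42 by 0.45 ± 0.06, with Jmjd2c changes of -0.19 ± 0.08 and -0.10 ± 0.06 that were not called.

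Rhox5, an X-linked homeobox gene, was bright and fell with Jmjd1a, with intensities of 2133, 2157 and 1864 on Luc replicates 1 to 3, 696, 646 and 669 on the Jmjd1a arrays, 2591, 2596 and 2664 on Luc replicates 4 to 6 and 2375, 2307 and 2423 on the Jmjd2c arrays. The fall was by 1.61 ± 0.06 and the Jmjd2c change was -0.14 ± 0.06 (interaction -1.47 ± 0.09, limma adjusted p = 1.14e-06). Acat3, an acetyl-CoA acetyltransferase, fell at least 3.48-fold and Myo1f, an unconventional myosin, at least 3.91-fold. The RAS-like GTPase gene Mras fell by 1.35 ± 0.12. Dusp27 fell at least 2.68-fold on 1 probe and by 0.32 on a second, dimmer one. Xbp1, the transcription factor of the unfolded protein response, was at like levels in both Luc sets, 1540.5 ± 23.6 and 1495 ± 41.8 (SD, n = 3). It fell by 0.92 ± 0.06 with Jmjd1a and had a Jmjd2c change of -0.06 ± 0.06. Of the 10 largest in each direction of this class, 6 stayed in the class against all 6 Luc arrays, among them Cxcl12, Fgf5, Cldn6, Acat3, Mras and Rhox5. The interactions of Gng12 (0.28), Eomes (0.35), Zfp42 (-0.12), Myo1f (-0.72) and Dusp27 (-0.31) were then not called (limma adjusted p = 0.134 to 0.618). Nor were the Jmjd1a changes of Gng12, Eomes and Dusp27 (limma adjusted p = 0.051 to 0.174). The interactions of Esrrb, Klf4, Tfcp2l1 and Xbp1 stayed called.

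Genes raised with Jmjd2c knockdown alone included some of FGF signalling and heat shock. The Jmjd2c-only class held 1007 probes up (6.35%) and 962 down (6.07%). On a list of FGF pathway and feedback genes 4 of 20 tested rose with Jmjd2c only, against 6.88% of all tested genes, and 5 rose in both, against 6.48%. Fgf15, an FGF of the early embryo, fell by at least 1.09 on the log2 scale with Jmjd2c only. Flrt3, an adhesion protein that binds FGF receptors, had intensities of 212, 178 and 174 on Luc replicates 1 to 3, 162, 160.4 and 149 on the Jmjd1a arrays, 48.9, 48.0 and 37.7 on Luc replicates 4 to 6 and 217, 208 and 249 on the Jmjd2c arrays. The Jmjd2c arrays rose by 2.33 ± 0.11 from a low Luc level to one that overlapped that of Luc replicates 1 to 3, and the Jmjd1a change was -0.26 ± 0.11 (limma adjusted p = 0.124). Sall3, a spalt-family transcription factor, showed the same arrangement: it rose by 1.76 ± 0.06 to 350.1 ± 12 (SD, n = 3), still below 433 ± 5.66 on Luc replicates 1 to 3. The receptor gene Fgfr2 had intensities of 347, 344 and 350.1 on Luc replicates 1 to 3, 315, 327 and 328 on the Jmjd1a arrays, 224, 234 and 210.1 on Luc replicates 4 to 6 and 506, 514 and 501 on the Jmjd2c arrays. Here the Jmjd2c arrays exceeded all 9 others, and the rise was 1.19 ± 0.05 (interaction -1.29 ± 0.07, limma adjusted p = 7.76e-07).

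Hs3st1, which modifies heparan sulfate, rose from the floor to 98.9, 88.0 and 86.5, at least 2.84-fold. Smooth muscle actin (Acta2) rose from the floor to 76.8, 94.9 and 67.0, at least 2.46-fold. Acta2 was above the floor on the Jmjd2c arrays alone, so it passed the filter through that group and had to differ. Its interaction was not called at a floor of 64 (-0.30, limma adjusted p = 0.192). On a heat shock list 5 of 18 tested genes rose with Jmjd2c only, against 6.88% of all tested genes. A called interaction lower for Jmjd1a was found on 8 of the 18, against 12.9% of all tested genes. These 8 were all of the list's called interactions. Of all 2392 genes with a called interaction, 1194 were lower for Jmjd1a. On 4 of the 8 the knockdown arrays were also called different in that sign. Hsph1, a chaperone of the HSP110 family, read 3582, 3283 and 3669.5 and 3727, 3716 and 3772 in the Jmjd1a comparison and 2353, 2373 and 2467 and 4376, 4662 and 4474 in the Jmjd2c comparison. It rose by 0.91 ± 0.06 with Jmjd2c. On a list of G1/S and replication genes 10 of 37 tested had a called interaction (27.0%), a share near the 25.9% of all tested genes. All 10 were lower for Jmjd1a, against 12.9% of all tested genes, and 5 of the 37 rose with Jmjd2c only. The knockdown arrays were called different in the sign of the interaction on 2 of the 10. The Luc set of the Jmjd2c comparison was called lower than the other on 22 of the 37 and higher on 4. Over all tested genes 61.8% had a called Luc difference in either direction.

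Jmjd2c knockdown alone lowered genes of glycolysis, the hypoxia response and the germ line, from Luc levels that were higher than in the other Luc set. Of 30 tested glycolysis and hypoxia genes 12 fell with Jmjd2c only, against 6.26% of all tested genes, and 7 fell in both, against 6.34%. In all, 20 had a called interaction. It was higher for Jmjd1a on 19 of the 30, against 13.0% of all tested genes. The list's median changes were -0.04 with Jmjd1a and -0.53 with Jmjd2c, while Luc 4 to 6 exceeded Luc 1 to 3 by a median of 0.57 and was called higher in 22 of the 30, where 61.8% of all tested genes had a called Luc difference in either direction. The oxygen-sensing hydroxylase gene Egln3 had intensities of 149.6, 163 and 151.9 on Luc replicates 1 to 3, 142, 136 and 139 on the Jmjd1a arrays, 505, 535 and 516 on Luc replicates 4 to 6 and 193, 189.6 and 174 on the Jmjd2c arrays. The Jmjd2c arrays fell by 1.48 ± 0.06 to a level still above the Luc 1 to 3 and Jmjd1a arrays. Ndrg1, a hypoxia-induced gene, fell by 1.45 ± 0.11 with Jmjd2c from 418 ± 6.79 to 153 ± 3.60 (SD, n = 3), with 89.9 ± 11 on Luc replicates 1 to 3. The glycolytic genes Pfkp, Ldhb and Hk1 fell in both, by 1.02 ± 0.07 and 1.06 ± 0.07 for Pfkp. Against all 6 Luc arrays as 1 group, 9 of the 30 genes had a called interaction.

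For the germ line list 5 of 17 tested genes fell with Jmjd2c only and 5 fell in both, against 6.26% and 6.34% of all tested genes. Smc1b, the meiotic cohesin subunit, had intensities of 26.0, 21.9 and 20.5 on Luc replicates 1 to 3, 16.6, 18.6 and 22.5 on the Jmjd1a arrays, 207, 222 and 243 on Luc replicates 4 to 6 and 42.5, 33.8 and 49.4 on the Jmjd2c arrays. It fell by 2.43 ± 0.11 with Jmjd2c, but lay under the floor on all 6 arrays of the Jmjd1a comparison, where no fall could be measured. The same held for Stra8, a gene of meiotic entry, which fell from 85.9, 91.4 and 91.1 to the floor, at least 2.79-fold. Zc3h6, Crtac1, Pygl and Mov10l1 were likewise under the floor on all 6 arrays of the Jmjd1a comparison. This was so for 220 of the 962 probes that fell with Jmjd2c only. Stra8, Crtac1 and Pygl were at the floor on the Jmjd2c arrays too. They passed the filter through Luc replicates 4 to 6 alone and had to differ. The 5 germ line genes that fell with Jmjd2c only include Smc1b, Stra8 and Mov10l1, for which no Jmjd1a fall could be measured. That limits what the count shows beside 6.26%. With the test limited to probes above the floor on at least 3 of 6 arrays in each comparison, an alternative chosen after the data were seen, the class of Jmjd2c-only probes held 1622 probes and that of Jmjd1a-only probes 818.

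Among genes measured in both comparisons, the arginine deiminase gene Padi2 had intensities of 87.5, 82.9 and 81.4 on Luc replicates 1 to 3, 80.4, 69.2 and 87.2 on the Jmjd1a arrays, 335, 307 and 339 on Luc replicates 4 to 6 and 104, 104 and 93.2 on the Jmjd2c arrays. It fell by 1.71 ± 0.08 with Jmjd2c, and its Jmjd1a change was -0.09 ± 0.08. Tdgf1, the Nodal co-receptor, read 1994, 2324 and 2079 on Luc replicates 4 to 6 and 1003, 1009.7 and 1068 with Jmjd2c, a fall by 1.05 ± 0.10. Its Jmjd1a change was -0.06 ± 0.10 (limma adjusted p = 0.735) and its interaction 0.99 ± 0.14 (adjusted p = 3.93e-04). Of the 10 largest Jmjd2c-only genes that fell, 0 stayed in the class against all 6 Luc arrays by limma, also at an unadjusted p under 0.05. Of those that rose 4 stayed (Sox17, Hs3st1, Acta2 and Fgfr2), though Acta2 had passed the filter only through its Jmjd2c arrays. Sox17 was above the floor on 5 arrays, 3 of them Jmjd2c arrays, so it too needed that group to pass. Hs3st1 lay at or near the floor outside the Jmjd2c arrays. In the same fit the interactions of Flrt3 (-0.52), Hsph1 (-0.27) and Tdgf1 (0.39) were not called (limma adjusted p = 0.179 to 0.559).

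**Figure D4:**
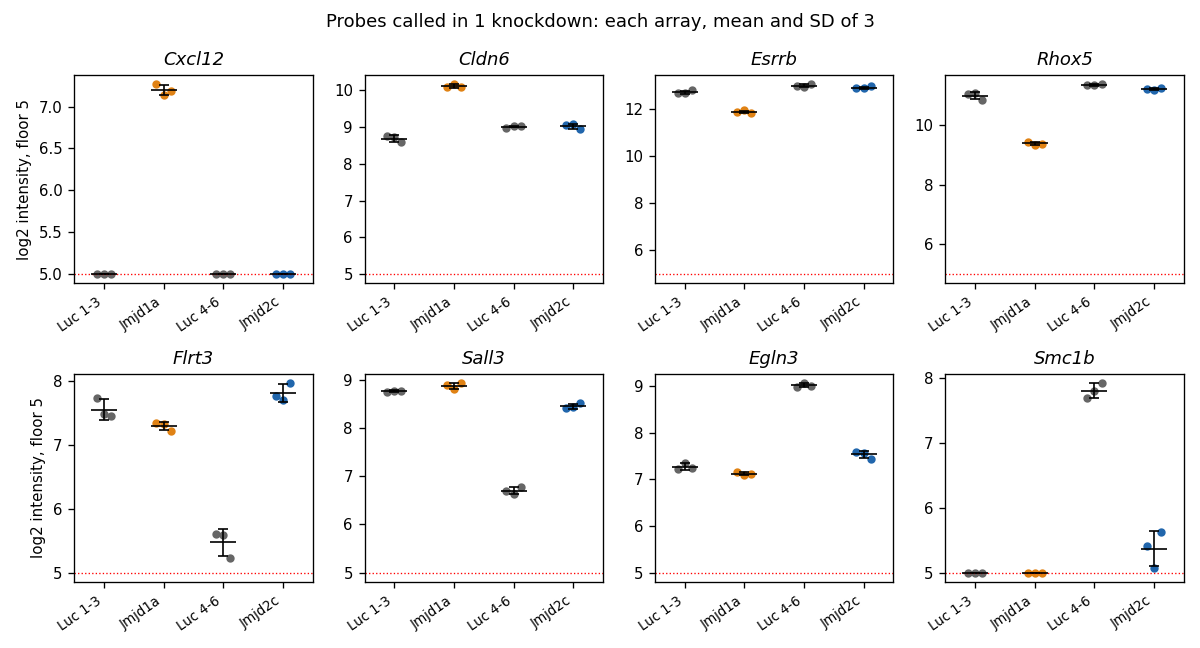
Log2 intensity (y axis, floor at 5 as a dotted line) on each array for 8 genes called in 1 knockdown, with the mean and SD of 3 arrays. Cxcl12, Cldn6, Esrrb and Rhox5 moved with Jmjd1a; Flrt3, Sall3, Egln3 and Smc1b moved with Jmjd2c, from Luc 4 to 6 levels unlike those of Luc 1 to 3.

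Across the 33 lists the share of tested genes with a called interaction was highest, among lists of at least 14 tested genes, for endoderm (78.3%) and for glycolysis and hypoxia (66.7%). It was lowest for oxidative phosphorylation, with 2 of 37 (5.41%), and was 15.0% for ribosomal proteins, beside 25.9% of all tested genes. On the G2/M and mitosis list the 9 called interactions of 34 were all higher for Jmjd1a, against 13.0% of all tested genes. Of the 34 genes, 6 fell with Jmjd2c only, against 6.26%. By limma the knockdown arrays were called different in the sign of the interaction on 0 of the 9. The Luc set of the Jmjd2c comparison was called higher than the other on 25 of the 34 and lower on 2. Over all tested genes 61.8% had a called Luc difference in either direction. On the cholesterol and fatty acid list 7 of 28 fell in both and 5 with Jmjd2c only, against 6.34% and 6.26% of all tested genes. By limma, 0 of the 6 tested Hox genes had a called interaction (2 at an unadjusted p under 0.05), and 0 of the 3 tested genes of a wider blood and macrophage list (0 at an unadjusted p under 0.05); with an intensity trend and robust moderation both counts were also 0. The plot of classes by list shows that the lists differ in kind as well as in share.

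**Figure D5:**
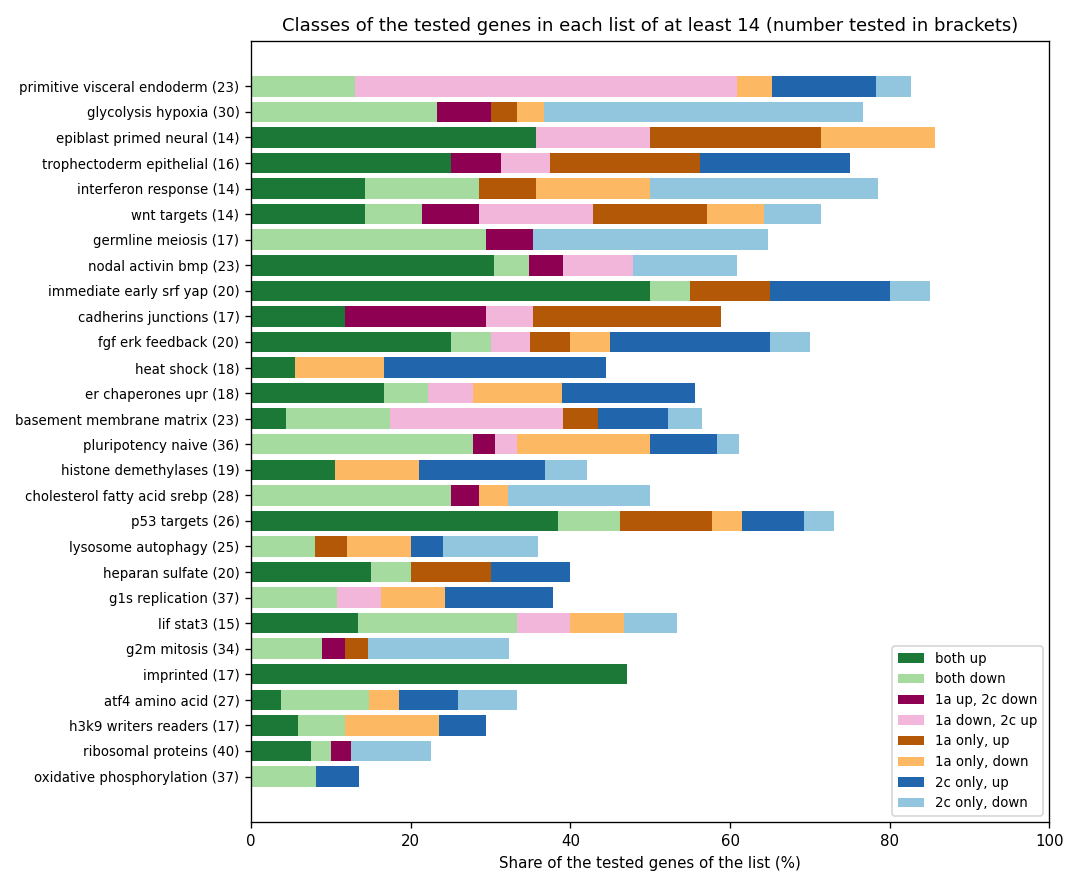
Share of the tested genes of each list (x axis, %) in each of 8 classes, for lists with at least 14 tested genes, ordered by the share with a called interaction; the number tested is in brackets. The endoderm list is most often down with Jmjd1a and up with Jmjd2c (11 of 23), glycolysis and hypoxia most often down with Jmjd2c only (12 of 30), and the immediate early list most often up in both (10 of 20).

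The unequal Luc sets touch every interaction, because the interaction equals the difference between the knockdown arrays plus the difference between the Luc sets. Of the 3844 called interactions the Luc sets also differed on 2939, and on 2475 of these the Luc difference had the sign of the interaction. Over all 15853 tested probes the Luc sets differed on 9199 (58.0%), with the sign of the interaction on 6597. Among the called interactions the Jmjd1a and Jmjd2c arrays differed from each other in the sign of the interaction on 1705 probes, in the other sign on 902 and by no call on 1237. Over all tested probes these numbers were 5186, 3531 and 7136. Of the 905 called interactions with no called Luc difference, the knockdown arrays differed in the same sign on 877. This follows largely from the sum, in which the Luc term was too small to be called, and adds no separate support. Among those 905 were 80 probes that moved in opposite directions, of which 54 fell with Jmjd1a and rose with Jmjd2c. Over all tested probes the median Luc difference was 0.10 and the median interaction -0.02 on the log2 scale. At the threshold, the last probe called, of Uty, had an interaction of -0.33 (limma adjusted p = 0.04999) and the first not called, of Srsf1, one of -0.26 (adjusted p = 0.0501).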

How the data were processed

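Biotin-labelled cRNA from 500 ng of total RNA per culture was hybridised to one-colour Illumina bead arrays, per the labels' protocols. The authors deposited probe intensities on a linear scale, after a background subtraction that shows in the 35.0% to 36.8% of values below 0 on each array. The sources used here do not say how they subtracted and scaled, and mean intensities of 236 to 245 per array were used as deposited.

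Values under 32 were raised to 32 and put on the log2 scale. Limma 3.58.1 in R 4.3.3 was fitted to all 12 arrays in 4 groups (8 residual degrees of freedom), and p-values were adjusted over 15853 probes. The test was tried on simulated data. Symbols come from the array's annotation, with 1 probe per gene, the brightest, in lists and named genes (9233 genes tested). The 33 lists hold 980 entries, of which 908 were on the array and 677 were tested.

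Members and lists were chosen with earlier results of these data known. Named genes are the targets, the 10 largest of each class (the first 5 or more of the one-knockdown classes), up to 3 per list, and 13 stem cell and lineage genes. Alternatives changed the scaling, floor, filter, moderation, threshold, control set, replicate block and each array in turn. Replicate numbers of Luc 1 to 3 and Jmjd1a did not pair the arrays: correlations of same-numbered deviations were -0.002, 0.01 and 0.11.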

Additional observations from a re-analysis of the deposited data

How the results depend on the processing

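With all 6 Luc arrays as 1 group, as in the study's own design text, 3950 probes had a called interaction, but 31.3% of them were higher for Jmjd1a in place of 51.1%. Probes that moved alike numbered 510, opposite ones 88, Jmjd1a-only ones 1411 and Jmjd2c-only ones 897. Of the 437 opposite probes 77 stayed opposite, and of the 1745 alike 478 stayed alike. In that fit the interaction is the Jmjd1a arrays minus the Jmjd2c arrays, and the spread between the Luc sets enters the error. The same difference was called on 8717 probes (55.0%) in the fit with 4 groups. The cause of the difference between the Luc sets was not tested. Interactions turned direction for Zc3h6 (-0.079), Pttg1 (-0.023), Arhgef4 (-0.51), Ndrg1 (-0.62), Egln3 (-0.42), Ldhb (-1.49), Smc1b (-0.37), Padi2 (-0.35), Sp5 (1.79), Gbx2 (0.26), Mov10l1 (-0.15), Bhlhe40 (-1.16), Hk1 (-1.12), Sall3 (0.42) and Ccnd2 (0.35). The Jmjd1a change turned for Pttg1 (-0.37), Arhgef4 (-0.081), Gbx2 (0.68), Mapk13 (-0.0030), Bhlhe40 (-0.95), Susd4 (-0.22), Ccnd2 (0.30) and Dsg2 (-0.00048). The Jmjd2c change turned for Bmp4 (-0.060), Arhgef4 (0.43), Dnmt3b (-0.24), Bhlhe40 (0.21), Got1l1 (0.27), Ccnd2 (-0.052) and the second Kdm3a probe (-0.0038). The only other reversal was Hs6st2, whose interaction was -0.52 at a floor of 16.

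With no filter on low values, which adds probes to the adjustment, 2330 probes had a called interaction, 1131 moved alike, 216 opposite, 577 with Jmjd1a only and 1250 with Jmjd2c only. At an adjusted p under 0.01 the counts were 2118, 994, 167, 566 and 1144, and with a log2 change of at least 0.5 for every call 2054, 450, 52, 472 and 925. Leaving out each array in turn gave 3296 to 3577 interactions, 1442 to 1645 alike, 321 to 392 opposite, 783 to 922 Jmjd1a-only and 1718 to 1883 Jmjd2c-only probes. Under the other alternatives (scaling, floor, log2(value + 50), all 12 arrays above 32, moderation, each knockdown fitted with its own Luc set alone) the 5 counts stayed within 1.5 times. With the replicate block for Luc 1 to 3 and Jmjd1a, whose numbers did not pair the arrays, 3667 interactions were called, with 1656 alike and 397 opposite. Probes near the floor limit what can be measured, and Jmjd2c-only falls are the most exposed to it.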

Other observations

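On a list of Nodal, activin and BMP genes 7 of 23 tested rose in both knockdowns, against 6.48% of all tested genes, and 12 had a called interaction by limma, against 25.9%, 7 of them lower for Jmjd1a. On the lysosome and autophagy list the Luc sets differed on 22 of 25 tested genes, with Luc 4 to 6 higher on 21, against a called Luc difference on 61.8% of all tested genes, whereas 8 of the 25 had a called interaction. Of the 8 tested genes of the 2-cell stage 3 had a called interaction lower for Jmjd1a, against 12.9% of all tested genes. These were all of the list's called interactions. The knockdown arrays were called different in that sign on 0 of the 3, and Luc 4 to 6 was lower than Luc 1 to 3 on 6 of the 8. Dnmt3b, a DNA methyltransferase that was brighter on Luc replicates 1 to 3 than on Luc replicates 4 to 6 by 1.74 on the log2 scale, rose in both knockdowns, by 0.45 ± 0.07 with Jmjd1a and 0.63 ± 0.07 with Jmjd2c. Gbx2, a homeobox gene induced by LIF, read 4215, 4244 and 4495 on Luc replicates 1 to 3, 3473, 3298 and 3507 with Jmjd1a, 1060.4, 1039 and 1085 on Luc replicates 4 to 6 and 2857, 2829 and 2911 with Jmjd2c. It fell by 0.33 ± 0.05 with Jmjd1a and rose by 1.43 ± 0.05 with Jmjd2c, and the knockdown arrays lay closer together than the Luc sets did.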
